A study of Mus musculus with 6 samples.

Results

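In the deposited miRNA table, 53 names carry the stem of a mouse miRNA, lack the mouse prefix and end in -y, such as miR-27-y or let-7-y. They were chosen from 1224 names by 3 conditions: a name with neither the mouse nor the predicted prefix and with the ending -y, a total of at least 100 counts over the 6 libraries, and a stem that also occurs among the mouse names. The total over both groups therefore chose them, and their totals are a description. The libraries are small RNA from GC-1spg, a line of immortalised mouse spermatogonia, that is, of the male germ cells that precede meiosis. The si-METTL3 group is 3 libraries of cells transfected with siRNA against METTL3, and the si-NC group is 3 libraries of cells given the control NC siRNA, all collected 48 h later. The labels' treatment field calls the si-NC cells untreated, and the protocol prints one and the same siRNA sequence for both reagents. miRNA counts do not show the level of METTL3, so the knockdown was not checked here. Both groups are one cell line. Nothing in the labels ties a library to a culture of its own, so each p-value covers spread among libraries, possibly of technical origin.

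A miRNA is cut from a hairpin precursor, whose 5′ and 3′ arms give products named 5p and 3p. Bases 2 to 8, the seed, lead the pairing with target mRNAs. Products of one arm can differ by a few bases at either end, and such forms are called isomiRs. They arise from uneven cutting, from trimming, and from the addition of bases, mostly A or U, by terminal nucleotidyltransferases. A changed start moves the seed, whereas a changed end leaves it as it was. METTL3 is the catalytic subunit of the enzyme that writes m6A into RNA, and m6A on primary miRNA transcripts has been reported to help the microprocessor component DGCR8 find them.

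The sequences below show what separates the -y names from the mouse forms. Each -y name was set beside the mouse name of its stem with the longest shared stretch of at least 16 bases, its mouse form. Capitals in a -y sequence mark bases outside that shared stretch, and capitals in a mouse sequence mark the seed. The -y sequences are the deposited ones, in DNA letters, and the mouse sequences are from RefSeq on GRCm38.p6. First come the 5 most abundant -y names.
miR-27-y: ttcacagtggctaagttctgATT
miR-27b-3p: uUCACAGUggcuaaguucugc
miR-92-y: tattgcacttgtcccggcctgTA
miR-92a-3p: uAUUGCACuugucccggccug
miR-101-y: tacagtactgtgatagctGAAG
miR-101b-3p: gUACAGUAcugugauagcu
miR-140-y: accacagggtagaaccacggACT
miR-140-3p: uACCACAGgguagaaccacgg
miR-23-y: atcacattgccagggatttccAAT
miR-23a-3p: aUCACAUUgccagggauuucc
The next set holds names whose level or ratio to the mouse form differed between the groups.
miR-24-y: tggctcagttcagcaggaacaCT
miR-24-3p: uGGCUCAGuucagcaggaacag
miR-30-y: ctttcagtcggatgtttgcagcCA
miR-30a-3p: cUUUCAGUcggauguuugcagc
miR-342-y: tctcacacagaaatcgcacccgtCT
miR-342-3p: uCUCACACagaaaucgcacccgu
miR-125-y: acaagtcaggttcttgggacctAT
miR-125b-2-3p: aCAAGUCAgguucuugggaccu
let-7-y: ctatacaacctactgccttcTT
let-7b-3p: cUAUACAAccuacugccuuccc
miR-331-y: gcccctgggcctatcctagaaCT
miR-331-3p: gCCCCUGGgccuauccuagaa
miR-877-y: tgtcctcttctccctcctcccaGA
miR-877-3p: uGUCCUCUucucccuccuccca
The last set shows a name with an extra base at its start and names that end in other letters than the mouse form does.
miR-22-y: Caagctgccagttgaagaactgt
miR-22-3p: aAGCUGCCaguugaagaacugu
miR-700-y: cacgcgggaaccgagtccaTT
miR-700-3p: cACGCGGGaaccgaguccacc
miR-615-y: tccgagcctgggtctccctcCA
miR-615-3p: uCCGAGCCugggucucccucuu

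Most -y names were longer forms of 3p arms. A mouse form was found for 51 of the 53, and all 51 mouse forms were 3p products. Of the names with the ending -x chosen by the same conditions, 59 of 60 with a mouse form were matched to a 5p product. The shared stretch was 18 to 23 bases. The ending thus marked the arm in these names, although the sources used here do not state what it stands for.

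The deposited -y sequences were 21 to 25 bases long with a median of 23, and the mouse forms were 19 to 23 bases long with a median of 22. Of the 51 pairs, 44 had the longer sequence under the -y name, 14 of them by 1 base, 25 by 2 bases and 5 by 3 bases. A further 5 were of equal length, and 2 were shorter by 1 base. The 3 shortest -y names, at 21 bases, were miR-214-y, miR-324-y and miR-700-y. At 25 bases, 6 names were the longest, among them miR-222-y, miR-342-y and miR-93-y. Among the 18 -y names with a total of at least 1000 counts, all 17 with a mouse form were longer than it. Name and length may not be independent, since how names were assigned is not stated, so the lengths are a description.

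**Figure D1:**
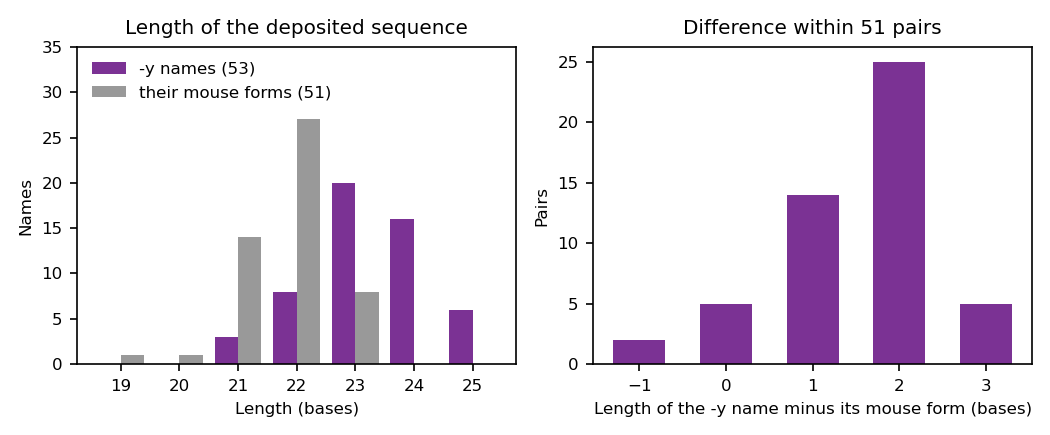
Left, number of names (vertical axis) by length of the deposited sequence in bases, for the 53 -y names and their 51 mouse forms. Right, number of pairs by the length of the -y name minus that of its mouse form, where 44 of 51 pairs lie above 0 and 25 lie at 2 bases.

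Most extra bases stood at the 3′ end, whereas miR-22-y, miR-21-y and miR-199-y had theirs only at the start. In 40 of the 51 pairs the -y name started at the same base as the mouse form and so had the same seed, and 30 -y names held the whole mouse form. Only the other pairs had a moved seed. In 6 pairs the -y name started 1 base later (miR-101-y, miR-140-y, miR-17-y, miR-455-y, miR-183-y and miR-16-y), and in miR-324-y it started 2 bases later. In 4 pairs it started 1 base earlier (miR-22-y, miR-21-y, miR-199-y and miR-210-y). The 53 names held 49 distinct seeds. The shared ones belonged to miR-92-y and miR-25-y, miR-148-y and miR-152-y, miR-103-y and miR-107-y, and miR-221-y and miR-222-y, each a known seed family.

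Most -y names ended in T or A. Among the 51 paired names, 29 ended in T, 20 in A, 1 in C and 1 in G. Of their mouse forms, 14 ended in U, 15 in A, 11 in C and 11 in G. For 39 -y names a RefSeq hairpin of GRCm38.p6 reached past the end of the sequence, so that its 3′ end could be laid along it. In 5 of them, miR-101-y, miR-199-y, miR-21-y, miR-22-y and miR-374-y, the sequence matched the hairpin up to its last base. Whether the first bases of these names matched was not counted. In the other 34 the last bases did not match, namely 1 base in 15 names, 2 bases in 17 names and 3 bases in 2 names. These 55 unmatched letters were 26 T, 25 A, 4 C and 0 G, and 31 of the 34 ends held only A and T. miR-27-y ended in an unmatched ATT and miR-92-y in an unmatched A, whereas of the AAT at the end of miR-23-y only the T was unmatched. The sources used here do not say whether such bases were read from the cells' RNA or taken from another species' reference sequence.

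Names with one listed sequence could carry different counts, and how reads were assigned to them is not stated in the sources used here. miR-148-y and miR-152-y are listed with the same sequence, yet their totals were 4071 and 2469 counts. In the same way the sequence of miR-103-y, with a total of 850 counts, is also listed under miR-107-z with 599 counts. miR-148-y had no mouse form, since its listed sequence matched miR-152-3p and not a mouse miR-148. miR-374-y had none either, because the table listed no 3p mouse name of its stem that shared enough bases, although its sequence lay on the mouse hairpin Mir374b.

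The -y names spanned a wide range of levels. Levels are given in TPM, here the count scaled to the library total with no correction for length. The totals ranged from 107 to 72979 counts with a median of 657. Totals over 10000 were held by 5 names, totals from 1000 to 10000 by 13 and totals under 1000 by 35. miR-16-y and miR-210-y lay just inside the limit with 107 counts each, and miR-344-y with 97 and miR-18-y with 87 counts lay just outside it. miR-27-y, miR-92-y, miR-101-y, miR-140-y and miR-23-y together took 81.8% of the 247292 counts under the 53 names. No -y name was at 0 in any library, and the lowest value was 9 counts (2.22 TPM).

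As a group the -y names were a small share of each library. They took 0.923%, 0.919% and 0.918% of the counts in si-METTL3 libraries 1 to 3, against 0.884%, 0.911% and 0.884% in si-NC libraries 1 to 3. The 3 si-METTL3 values lay above the 3 si-NC values by a small margin (0.920% ± 0.00286 against 0.893% ± 0.0156, SD, n = 3 each). miR-140-y alone had a mean of 1302 TPM in si-METTL3 and 997 TPM in si-NC libraries. That rise is larger than the margin, so the margin does not describe the -y names at large. Their mouse forms took 23.1% ± 0.282 of the si-METTL3 libraries and 22.1% ± 0.492 of the si-NC libraries (SD, n = 3 each). For every 100 counts of the mouse forms there were 4.02, 3.92 and 4.002 counts of -y names in the si-METTL3 libraries, against 4.07, 4.17 and 3.91 in the si-NC libraries. On that scale the groups overlapped.

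A -y name was usually rarer than its mouse form. Over all 6 libraries there were between 0.343 counts (miR-22-y) and 217 counts (miR-101-y) of the -y name per 100 counts of the mouse form, with a median of 10.0. In 5 pairs the value was under 1, in 20 it was 1 to 10, in 20 it was 10 to 100, and in 6 it was over 100. The names with more counts than their mouse form were miR-101-y, miR-702-y, miR-324-y, miR-700-y, miR-187-y and let-7-y. For miR-101-y, whose family is known as a repressor of the histone methyltransferase Ezh2, the level was 1164, 1163 and 1209 TPM in si-METTL3 libraries and 1156, 1203 and 1225 TPM in si-NC libraries. Its mouse form miR-101b-3p, at chromosome 19, 29135338 to 29135356 on the plus strand of GRCm38 in an intron of Rcl1, had 554, 520 and 529 TPM in si-METTL3 libraries and 506, 582 and 582 TPM in si-NC libraries. As described, the levels of -y name and mouse form had a Spearman correlation of 0.71 over the 51 pairs, which share their libraries and most of their bases.

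**Figure D2:**
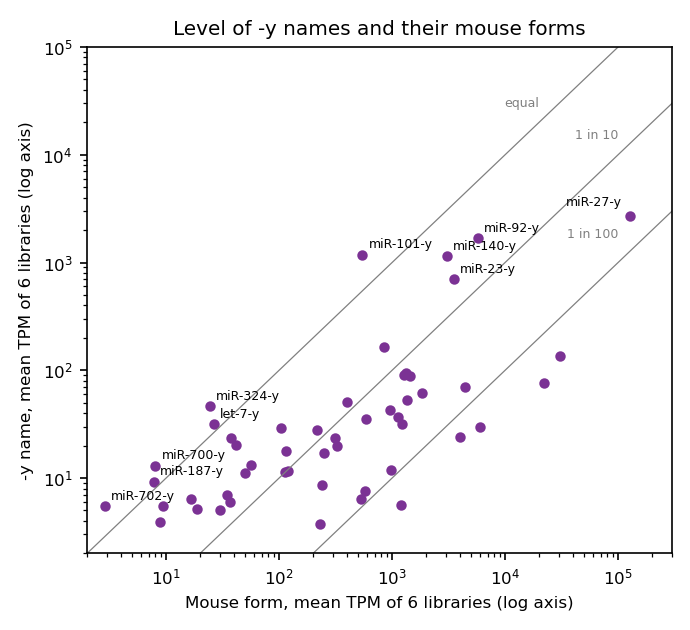
Each point is one of 51 -y names with its mean TPM over the 6 libraries (vertical, log axis) against that of its mouse form (horizontal, log axis), and the grey lines mark equal levels, 1 in 10 and 1 in 100. The 6 named points on or above the line of equal levels carry more counts than their mouse form, and miR-27-y is the most abundant -y name.

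The libraries differed in size and in trace content. Their totals were 4473804 to 6132668 counts in the si-METTL3 group and 3998058 to 4052812 in the si-NC group, so that every si-METTL3 library was the larger, and 3 counts in a library stood for 0.489 to 0.750 TPM. All 16 miRNA stems fixed as germ line markers were listed, at a sum of 142756 to 154707 TPM in si-METTL3 and 152695 to 155194 TPM in si-NC libraries. That list also holds miR-21a, miR-221 and miR-222, and the sum was not split by stem. It therefore does not show the level of any single stem. For pluripotent cells 0 of 11 stems was listed. Stems for muscle (4 of 7 listed) summed to 47.8 to 64.3 TPM in si-METTL3 and 92.0 to 96.4 TPM in si-NC libraries. Those for epithelium (5 of 5) summed to 69.0 to 73.3 TPM in si-METTL3 and 102 to 124 TPM in si-NC libraries. For neurons (5 of 6) the sums were 312 to 358 TPM in si-METTL3 and 265 to 289 TPM in si-NC libraries. Of these sums, miR-128-3p alone made up 253 to 302 TPM in si-METTL3 and 207 to 234 TPM in si-NC libraries. For blood (6 of 6) the sums were 254 to 267 TPM in si-METTL3 and 201 to 236 TPM in si-NC libraries. For liver (1 of 1) the value was at most 3.95 TPM in any library. Names of 9 miRNAs known from invertebrates, all with the ending -y, summed to 129, 84.5 and 72.2 TPM in si-METTL3 libraries 1 to 3 and to 0.247, 49.0 and 103 TPM in si-NC libraries 1 to 3. By miR-750-y, with 321, 0 and 0 counts in si-METTL3 libraries and 0, 83 and 177 in si-NC libraries, and by their near absence from si-NC library 1, the libraries fell into 3 sets. One held si-METTL3 1 together with si-NC 2 and 3, another si-METTL3 2 and 3, and the last only si-NC 1. The part of these markers and sets in the results was not tested beyond a fit with a term for the sets, in which the contrast rests on si-METTL3 1 against si-NC 2 and 3.

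The first comparison asked which -y names had another abundance after METTL3 siRNA. All 53 passed the filter on low counts, and 14 were called at an adjusted p under 0.05 (edgeR quasi-likelihood test, two-sided, Benjamini-Hochberg adjusted over 622 names). Of these, 11 were higher in si-METTL3 and 3 were lower. Among all 622 names 29.3% were called, 17.7% higher and 11.6% lower, and among the -y names 26.4% were called, so their share was near that background. The median log2 fold was 0.09 over the -y names and 0.01 over all names tested. Without composition scaling (library totals alone) the split was 4 higher and 6 lower, and over all names 44.9% of calls were higher in place of 60.4%; that scaling moved the median of all names to -0.06. TPM of the groups did not overlap for 21 of the 53 -y names, 8 higher and 13 lower in si-METTL3, against 43.4% of all names. Among the 51 mouse forms 11 were higher and 13 lower.

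miR-140-y changed with the smallest adjusted p. miR-140 is best known from cartilage, and its 3p product, the mouse form here, lies at chromosome 8, 107551288 to 107551308 on the plus strand of GRCm38, within an annotated exon of Wwp2. miR-140-y had 1346, 1283 and 1277 TPM in si-METTL3 libraries 1 to 3, against 1001, 991 and 998 TPM in si-NC libraries 1 to 3. All si-METTL3 values lay above all si-NC values, with a log2 fold of 0.45 ± 0.04 (SE, edgeR adjusted p = 1.7e-08). miR-140-3p rose as well, to 3388, 3251 and 3370 TPM in si-METTL3 libraries, against 2658, 2723 and 2885 TPM in si-NC libraries, a log2 fold of 0.34 ± 0.04 (edgeR adjusted p = 4.3e-07). The call for miR-140-y held in all 6 refits that left out a library and within the sets, where the log2 fold was 0.49.

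miR-30-y fell, and its mouse form was not called. miR-30a-3p, the partner strand of the guide miR-30a-5p, lies at chromosome 1, 23272315 to 23272336 on the plus strand of GRCm38, outside other annotated genes. miR-30-y had 35.2, 38.2 and 40.1 TPM in si-METTL3 libraries, against 65.9, 60.5 and 61.7 TPM in si-NC libraries. The groups stood well apart, with a log2 fold of -0.67 ± 0.10 (SE, edgeR adjusted p = 1.3e-05), and the call held in all 6 refits and within the sets (-0.74). miR-30a-3p had 396, 380 and 360 TPM in si-METTL3 libraries and 408, 415 and 455 TPM in si-NC libraries, with a log2 fold of -0.10 (edgeR adjusted p = 0.17).

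miR-342-y and miR-700-y rose too, at lower levels. The miR-342 hairpin sits in an intron of Evl, with miR-342-3p at chromosome 12, 108658680 to 108658702 on the plus strand. miR-342-y had 24.5, 23.9 and 25.6 TPM in si-METTL3 libraries, against 17.8, 11.5 and 15.7 TPM in si-NC libraries, a log2 fold of 0.78 ± 0.17 (edgeR adjusted p = 8.5e-04). The groups did not overlap, while miR-342-3p was not called, with a log2 fold of -0.00 (edgeR adjusted p = 0.99). miR-700-3p lies in an annotated exon of Rcan3 at chromosome 4, 135416561 to 135416581 on the minus strand. miR-700-y had 16.8, 15.9 and 17.1 TPM in si-METTL3 libraries, against 7.40, 10.5 and 10.5 TPM in si-NC libraries, a log2 fold of 0.88 ± 0.19 (edgeR adjusted p = 7.5e-04). Here name and mouse form moved alike, since miR-700-3p had a log2 fold of 0.90 ± 0.24 (edgeR adjusted p = 0.0048). Both calls held in all 6 refits and within the sets (0.90 for miR-342-y and 0.73 for miR-700-y).

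The other 10 calls each failed in at least 1 of the 6 refits that left out a library. miR-24-y, from a 3p arm encoded at chromosomes 13 and 8, had 138, 146 and 143 TPM in si-METTL3 libraries, against 122, 133 and 124 TPM in si-NC libraries (log2 fold 0.24 ± 0.07, edgeR adjusted p = 0.0095). Its call was missed without si-METTL3 2 (adjusted p = 0.0508, edgeR), and its mouse form fell by 0.17 on the log2 scale (edgeR adjusted p = 0.0014). miR-615-y, whose hairpin lies in an intron of Hoxc5, had 31.0, 23.5 and 27.1 TPM in si-METTL3 libraries and 21.2, 24.3 and 14.99 TPM in si-NC libraries. These overlapped, with a log2 fold of 0.50 ± 0.16 (edgeR adjusted p = 0.024), lost without si-METTL3 1 (0.127) or si-NC 3 (0.163), where the log2 fold was 0.32. miR-615-3p itself rose by 0.87 (edgeR adjusted p = 4.7e-11). miR-22-y, which starts 1 base before miR-22-3p, had 69.5, 66.8 and 66.6 TPM in si-METTL3 libraries, against 82.9, 88.0 and 79.2 TPM in si-NC libraries. It was lower without overlap (log2 fold -0.23 ± 0.08, edgeR adjusted p = 0.030), but the call held only when si-NC 3 was the library left out, with adjusted p of 0.0522 to 0.112 in the other 5 refits. Its mouse form fell by 0.18 (edgeR adjusted p = 7.5e-04).

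miR-27-y, the most abundant -y name, had 2636, 2774 and 2775 TPM in si-METTL3 libraries and 2611, 2723 and 2561 TPM in si-NC libraries. The groups overlapped, and the log2 fold of 0.12 ± 0.04 (edgeR adjusted p = 0.041) was lost without si-METTL3 2 (0.140), si-METTL3 3 (0.160) or si-NC 3 (0.217) and with library totals alone (0.385). miR-378-y had 87.4, 95.9 and 96.3 TPM in si-METTL3 libraries and 76.0, 82.8 and 87.9 TPM in si-NC libraries (log2 fold 0.24 ± 0.08, edgeR adjusted p = 0.024). miR-378 is known for its role in energy metabolism, and the call was lost without si-METTL3 2 (0.0967), si-METTL3 3 (0.100) or si-NC 1 (0.119). miR-148-y had 152, 167 and 148 TPM in si-METTL3 libraries and 148, 139 and 139 TPM in si-NC libraries (log2 fold 0.20 ± 0.07, edgeR adjusted p = 0.037). It was lost without si-METTL3 2 (0.236), si-NC 2 (0.119) or si-NC 3 (0.134), and miR-152-y, listed with the same sequence, had a log2 fold of -0.10 (edgeR adjusted p = 0.38).

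The remaining 4 calls concerned names at low levels. miR-128-y, of a miRNA abundant in neurons, had 19.1, 19.7 and 20.4 TPM in si-METTL3 libraries, against 17.03, 11.01 and 16.2 TPM in si-NC libraries (log2 fold 0.48 ± 0.18, edgeR adjusted p = 0.048). It lost the call in every refit but the one without si-NC 1 (0.0659 to 0.282), with a log2 fold of 0.30 without si-NC 2. The summed TPM of the neuron stems, of which miR-128 is one, stood higher in si-METTL3 libraries too. Most of that sum was the mouse form miR-128-3p itself. It had 302, 291 and 253 TPM in si-METTL3 libraries and 207, 234 and 224 TPM in si-NC libraries. The sum is therefore not a measure apart from miR-128, and the part of the other neuron stems was not tested. miR-331-y had 14.0, 14.3 and 10.5 TPM in si-METTL3 libraries and 8.88, 8.25 and 10.7 TPM in si-NC libraries (log2 fold 0.55 ± 0.20, edgeR adjusted p = 0.039), called in no refit but that without si-METTL3 3 (others 0.0525 to 0.165). miR-328-y had 5.87, 6.26 and 7.01 TPM in si-METTL3 libraries and 4.19, 2.25 and 5.00 TPM in si-NC libraries (log2 fold 0.80 ± 0.30, edgeR adjusted p = 0.046), lost without any si-METTL3 library (0.0672, 0.0807 and 0.141) or si-NC 2 (0.249, log2 fold 0.52). These values rest on few counts. miR-3102-y had 26.7, 22.4 and 24.7 TPM in si-METTL3 libraries and 35.5, 36.3 and 28.0 TPM in si-NC libraries (log2 fold -0.37 ± 0.14, edgeR adjusted p = 0.046), lost without si-METTL3 2 (0.152), si-METTL3 3 (0.0763), si-NC 1 (0.152) or si-NC 2 (0.165). With library totals alone, the rises of miR-140-y, miR-615-y, miR-342-y and miR-700-y and the falls of miR-30-y, miR-22-y and miR-3102-y stayed called. The rises of miR-24-y (0.0686), miR-148-y (0.179), miR-378-y (0.109), miR-128-y (0.0899), miR-331-y (0.0739) and miR-328-y (0.0688) were lost there, like that of miR-27-y (edgeR adjusted p). All 14 kept their sign in every alternative run. Within the sets 5 of the 14 calls held, those of miR-140-y, miR-30-y, miR-342-y, miR-700-y and miR-615-y (log2 fold 0.71). Of those that did not hold, miR-27-y (0.05), miR-24-y (0.16), miR-378-y (0.09) and miR-3102-y (-0.21) had smaller log2 folds there. The log2 folds of miR-148-y (0.18), miR-22-y (-0.22), miR-128-y (0.54), miR-331-y (0.61) and miR-328-y (0.74) stayed close to those over all libraries.

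**Figure D3:**
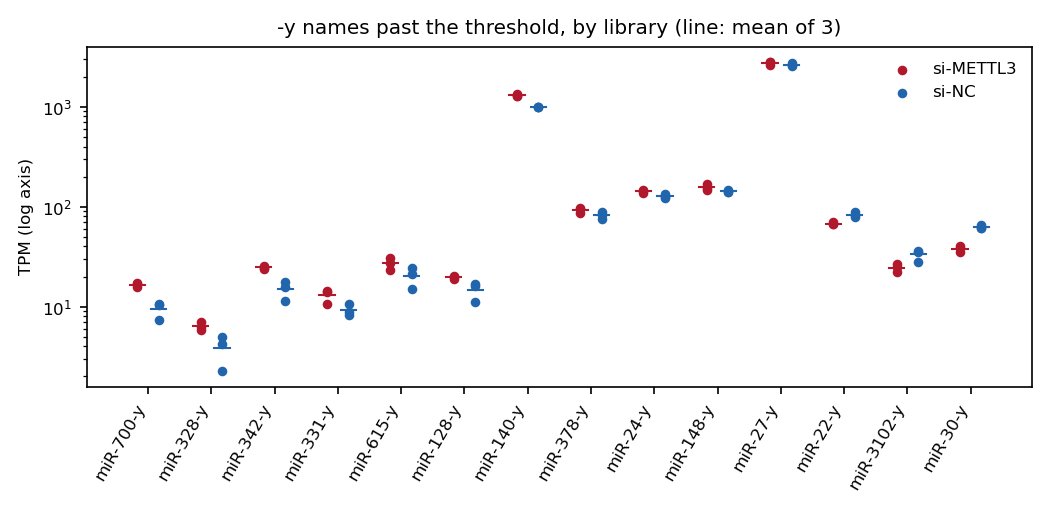
TPM in each library of the 14 -y names called in abundance (vertical, log axis), with si-METTL3 points left of si-NC points above each name and a line at the mean of 3. miR-140-y, miR-30-y, miR-342-y and miR-700-y show groups that stand apart, while miR-27-y and miR-615-y overlap.

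Of the 10 most abundant -y names, 6 were not called. miR-92-y, whose mouse form has a copy in the oncogenic miR-17-92 cluster on chromosome 14 and another on chromosome X, had 1702, 1610 and 1605 TPM in si-METTL3 libraries and 1767, 1744 and 1717 TPM in si-NC libraries (log2 fold -0.02, edgeR adjusted p = 0.75). For miR-23-y the values were 718, 737 and 680 TPM in si-METTL3 libraries and 652, 766 and 685 TPM in si-NC libraries (log2 fold 0.09, edgeR adjusted p = 0.24). The si-METTL3 values of miR-92-y lay below its si-NC values without overlap, whereas those of miR-23-y overlapped. With library totals alone the log2 fold of miR-92-y was -0.09 (edgeR adjusted p = 0.126). Neither name passed the test, which does not show equal levels. For miR-101-y the log2 fold was 0.05 (edgeR adjusted p = 0.47), for miR-151-y 0.07 (0.48), for miR-222-y -0.16 (0.14) and for miR-152-y -0.10 (0.38). Over the 39 uncalled names the log2 folds ran from -0.52 to 0.58. By the authors' deposited table of all names, 6 of the 53 had an FDR under 0.05, and 0 of the 53 stood in the authors' deposited table of 50 differently expressed miRNAs, whose smallest absolute log2 fold change was 1.01.

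The second comparison took each -y name relative to its mouse form, which asks whether the form, and not the miRNA, differed between the groups. Values are counts of the -y name per 100 counts of the mouse form, tested as log2 ratios with limma (two-sided, Benjamini-Hochberg adjusted over the 157 pairs of all 3 endings). Of the 51 -y pairs 10 were called, 7 higher and 3 lower in si-METTL3, or 19.6%, against 15.3% of all 157 pairs (7.64% in each direction). The median log2 difference was 0.05 over the -y pairs and -0.00 over all pairs. Ratios of the groups did not overlap in 19 of the 51, 14 higher and 5 lower, against 33.8% of all pairs. Of the 58 pairs with the ending -x, 3 were higher and 9 lower, and of the 30 with -z, 2 were called, both higher; the difference between the endings was not tested.

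The miR-23, miR-27 and miR-24 hairpins form known clusters, and the -y names of all 3 changed relative to their mouse forms. miR-23-y had 23.4, 23.5 and 22.7 counts per 100 of miR-23a-3p in si-METTL3 libraries, against 18.3, 17.9 and 16.98 in si-NC libraries (log2 difference 0.39 ± 0.05, limma adjusted p = 6.8e-09). miR-24-y had 0.489, 0.528 and 0.507 per 100 of miR-24-3p in si-METTL3 libraries, against 0.366, 0.414 and 0.368 in si-NC libraries (0.41 ± 0.08, limma adjusted p = 8.0e-05). Both rose without overlap. miR-27-y instead fell, with 1.93, 1.94 and 2.00 per 100 of miR-27b-3p in si-METTL3 libraries, against 2.29, 2.37 and 2.13 in si-NC libraries (-0.21 ± 0.04, limma adjusted p = 1.6e-04). In each of the 3 the mouse form moved more than the -y name or the opposite way: the log2 fold in abundance was -0.30 for miR-23a-3p against 0.09 for miR-23-y, -0.17 for miR-24-3p against 0.24 for miR-24-y, and 0.33 for miR-27b-3p against 0.12 for miR-27-y. miR-23a-3p lies at chromosome 8, 84208563 to 84208583, and a miR-24-3p copy follows at 84208875 to 84208896, both on the plus strand of GRCm38. miR-27b-3p lies at chromosome 13, 63300760 to 63300780, and the other miR-24-3p copy at 63301251 to 63301272, also on the plus strand, in annotated exons of 2010111I01Rik. With all 3p mouse names of the stem summed, the log2 difference of miR-23-y was 0.31 (limma adjusted p = 4.3e-07).

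miR-30-y and miR-342-y differed in ratio as they had in abundance. miR-30-y had 8.90, 10.1 and 11.1 counts per 100 of miR-30a-3p in si-METTL3 libraries, against 16.1, 14.6 and 13.6 in si-NC libraries (log2 difference -0.56 ± 0.12, limma adjusted p = 3.1e-04). miR-342-y had 7.31, 7.86 and 7.99 per 100 of miR-342-3p in si-METTL3 libraries, against 5.21, 3.45 and 4.73 in si-NC libraries (0.80 ± 0.18, limma adjusted p = 5.2e-04). Neither pair of groups overlapped. miR-125-y had 7.21, 7.65 and 8.81 per 100 of miR-125b-2-3p in si-METTL3 libraries, against 4.87, 5.68 and 4.41 in si-NC libraries (0.66 ± 0.14, limma adjusted p = 3.1e-04). Its mouse form, at chromosome 16, 77646318 to 77646339 on the plus strand in an intron of Mir99ahg, fell by 0.78 on the log2 scale (edgeR adjusted p = 4.7e-11), while miR-125-y was not called. With all 3p mouse names of the miR-125 stem summed, that log2 difference was 0.21 and no longer passed (limma adjusted p = 0.337). The calls for miR-23-y, miR-24-y, miR-27-y, miR-30-y, miR-125-y and miR-342-y held in all 6 refits that left out a library.

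The other 4 ratio calls each failed in at least 1 refit. let-7-y, a form of the partner strand of the differentiation-linked let-7b, had 99.4, 113 and 81.2 counts per 100 of let-7b-3p in si-METTL3 libraries, against 151, 167 and 123 in si-NC libraries (log2 difference -0.59 ± 0.15, limma adjusted p = 0.0035), lost without si-METTL3 3 (0.0925). miR-877-y, whose hairpin lies in an intron of Abcf1, had 48.3, 35.3 and 36.0 per 100 of miR-877-3p in si-METTL3 libraries, against 12.8, 26.9 and 20.2 in si-NC libraries (1.03 ± 0.32, limma adjusted p = 0.015), lost without si-METTL3 1 (0.0950) or si-NC 1 (0.136). In both, the groups did not overlap. miR-877-3p fell by 0.46 on the log2 scale (edgeR adjusted p = 0.038). miR-877-y itself, with 12, 21 and 19 counts in the si-NC libraries, was not called in abundance (edgeR adjusted p = 0.14). miR-328-y had 20.1, 25.5 and 25.6 per 100 of miR-328-3p in si-METTL3 libraries, against 13.3, 7.14 and 13.6 in si-NC libraries (1.09 ± 0.32, limma adjusted p = 0.011), lost without si-METTL3 2 (0.0532), si-METTL3 3 (0.0702) or si-NC 2 (0.112). miR-331-y had 29.0, 30.9 and 24.2 per 100 of miR-331-3p in si-METTL3 libraries, against 15.9, 16.2 and 19.9 in si-NC libraries (0.69 ± 0.22, limma adjusted p = 0.021), lost without si-METTL3 1 (0.0979), si-METTL3 2 (0.146) or si-NC 2 (0.0678). All 10 kept their sign in every alternative run. Within the sets 3 of the 10 held, miR-23-y (0.42), miR-27-y (-0.22) and miR-30-y (-0.66). The other 7 did not pass there, with log2 differences of 0.32 for miR-24-y, 0.53 for miR-125-y, -0.52 for let-7-y, 0.85 for miR-342-y, 0.68 for miR-331-y, 1.03 for miR-877-y and 0.99 for miR-328-y. Their SE in that fit were 0.14 to 0.46, larger than over all libraries.

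**Figure D4:**
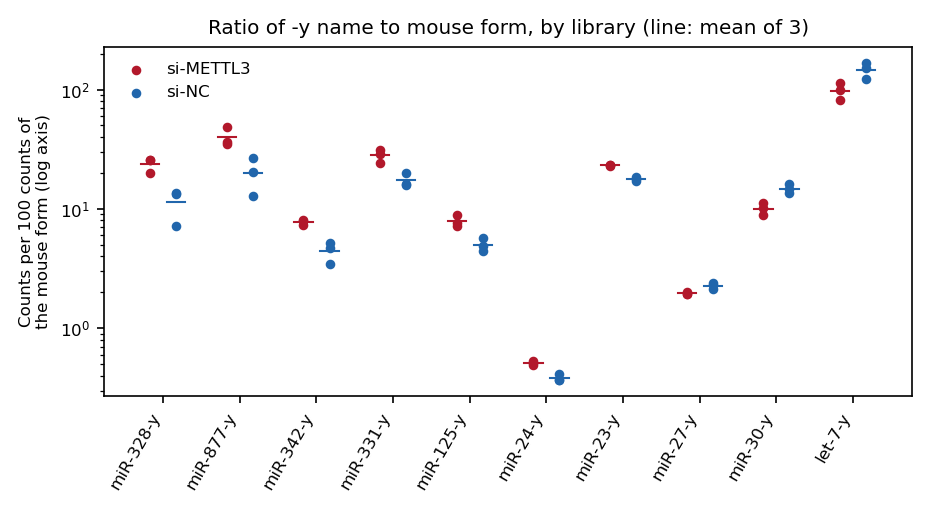
Counts of the -y name per 100 counts of its mouse form in each library, for the 10 -y names called in ratio (vertical, log axis), with si-METTL3 points left of si-NC points and a line at the mean of 3. The ratios of miR-23-y, miR-24-y and miR-342-y lie higher in all 3 si-METTL3 libraries, and those of miR-27-y, miR-30-y and let-7-y lie lower.

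Among uncalled pairs, miR-92-y came closest to the threshold. It had 30.4, 31.4 and 30.7 counts per 100 of miR-92a-3p in si-METTL3 libraries, against 28.3, 28.9 and 28.1 in si-NC libraries (log2 difference 0.12, limma adjusted p = 0.0504). Over the 41 uncalled pairs the log2 differences ran from -0.47 to 0.53. For miR-140-y, whose level and mouse form both rose, the log2 difference in ratio was 0.11 (limma adjusted p = 0.12), and for miR-700-y it was 0.00.

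Level and ratio thus picked out partly different names. Both calls were made for 6 names, namely miR-24-y, miR-27-y, miR-30-y, miR-328-y, miR-331-y and miR-342-y. Abundance alone was called for 8 and the ratio alone for 4, namely miR-23-y, miR-125-y, let-7-y and miR-877-y. Of the 13 names called in abundance that had a mouse form, 7 had the mouse form called in the same direction. Over the 51 pairs the log2 folds of -y name and mouse form had the same sign in 33, with a Pearson correlation of 0.38 and a Spearman correlation of 0.35, as a description over pairs that share libraries and most of their sequence.

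**Figure D5:**
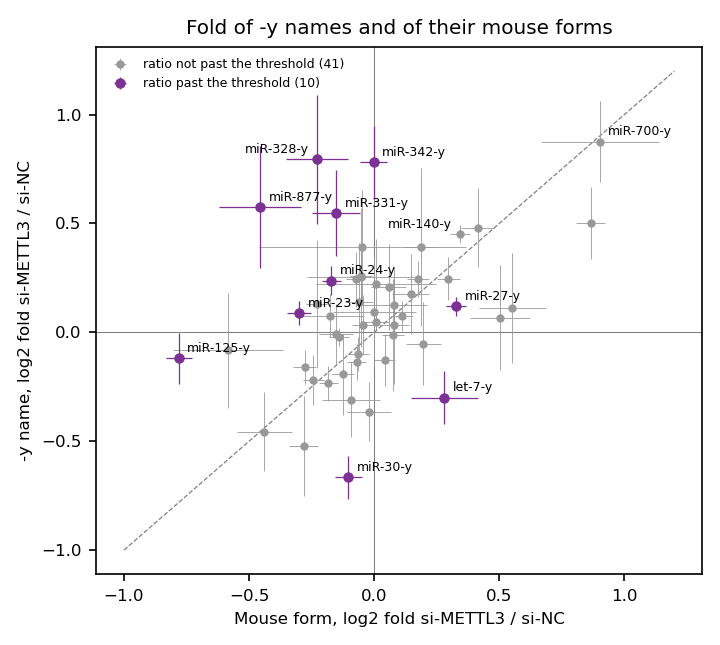
Log2 fold in abundance, si-METTL3 over si-NC, of each of 51 -y names (vertical) against that of its mouse form (horizontal), with bars of 1 SE, the 10 names called in ratio in purple and a dashed line of equal folds. miR-140-y and miR-700-y lie near the line, miR-342-y and miR-30-y lie off it with mouse forms near 0, and the signs match in 33 of 51 pairs.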

How the data were processed

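Small RNA of 6 GC-1spg libraries was measured. The authors deposited, per the file headers, a count of reads per miRNA name and a TPM for each library, with the sequence, its length and the total. The authors' log2 fold changes, p-values and FDR stand in the same deposited table. Every deposited TPM equals its count scaled by 1 library total, within 5e-05, and those totals (3998058 to 6132668) served as library sizes; the table's counts make up 91.4% to 92.1% of them. The tools named in the submitters' processing notes are Bowtie2, RSEM, fastp and StringTie, and the build is mm10; no role is stated. The sources used here do not say how names and the endings -x, -y and -z were assigned. Of the table, 2 lines came empty and are not analysed here.

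Groups were taken from the sample titles. Abundance was tested over all names with edgeR 4.0.16 (TMM, filterByExpr, robust quasi-likelihood test, R 4.3.3; common biological coefficient of variation 0.0583, 4 residual degrees of freedom). Ratios were log2 of counts plus 0.5 on both sides, where -y name and mouse form each averaged 10 counts or more, tested with limma 3.58.1. DESeq2 1.42.0 served as an alternative. The SE of an edgeR log2 fold was calculated back from the test, as the absolute log2 fold divided by the square root of the quasi-likelihood F statistic. Sequences were matched in Python 3.11.15 to RefSeq tables of GRCm38.p6, the patch series of the build named mm10, in which 560 of 679 mouse names were found, all 560 with the deposited sequence; host genes are from GENCODE M21. A RefSeq hairpin was matched for 41 of the 53 names. The floor of 3 counts covers counting error only, and reads without molecular identifiers are not independent molecules.

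The members, lists and tests were chosen with earlier results of these data known. Named were the 10 most abundant members, all members called in abundance or in ratio, the 3 shortest and 3 of the longest, the 2 just above and 2 just below the limit of 100, and their mouse forms; other names were chosen after their values were seen. Refits left out each library in turn, changed scaling, filter, tool, pseudocount or the choice of mouse form, used the replicate number as a block, and, added after seeing the data, a term for 3 sets of libraries. Replicate numbers did not pair the libraries: the deviations of same-numbered libraries correlated at -0.34, -0.07 and -0.27.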

Additional observations from a re-analysis of the deposited data

How the results depend on the processing

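Over the alternatives no called -y name changed sign: of 427 values for single names and pairs under other settings, 324 kept direction and side of the threshold, 97 no longer passed and 2 newly passed, both for miR-222-y (log2 -0.22 with library totals alone and -0.23 with limma on log2(TPM + 1)). The other 4 changed sign, all for uncalled names near 0: miR-101-y (0.047) had -0.020 with library totals alone, -0.0197 with limma on TPM and -0.0092 with the term for sets, and miR-92-y (-0.022) had 0.028 with the term for sets. Called names in all numbered 182, and 122 to 187 under the alternatives (153 to 171 with a library left out). The 11 -y names called higher became 4 with library totals alone, 5 with the DESeq2 Wald test, 4 with limma on TPM, 7 with dispersion estimates that were not robust, 5 with a term for the 3 sets of libraries, and 4 to 10 with a library left out. The 3 called lower became 6 with library totals alone, 1 with no filter, 5 with at least 10 CPM in 3 libraries, 1 with DESeq2, 6 with limma on TPM, and 1 to 4 with a library left out. The 24 ratio pairs called became 8 with the term for sets and 15 to 24 with a library left out, of which the 7 higher -y pairs became 1 and 5 to 8, and the 3 lower ones 2 to 5 with a library left out. With the replicate number as a block, 176 names and 12 -y names, and 24 pairs and 10 -y pairs, were called; the numbers did not pair the libraries (correlations of -0.34, -0.07 and -0.27). At a total of at least 1000 counts, 17 -y names were longer than the mouse form, 0 equal and 0 shorter. As a share of the table's counts the -y names took 1.00% in si-METTL3 and 0.976% in si-NC. The cause of these shifts was not tested. Leaving out a library or adding the term for sets leaves fewer libraries to the contrast. The rarest -y names hold as few as 9 counts in a library, so counting error limits their folds.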

Other observations

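Of the 51 paired -y names, 6 end in CT after the stretch shared with the mouse form: miR-140-y, miR-17-y, miR-200-y, miR-24-y, miR-331-y and miR-342-y. They were grouped after their values were seen, so no test is given. The log2 difference in ratio, si-METTL3 over si-NC, was above 0 in all 6 (0.11 to 0.80, median 0.47), and 3 of them were called higher (limma). In the other 45 -y pairs the median was 0.03, with 25 above 0 and 7 called in either direction. Outside the 53 names, 5 pairs had a name ending in CT, and whether that CT lay past the shared stretch was not checked. Of these 5, 2 were above 0, with 1 called higher (miR-23-z) and 1 called lower (miR-26-x).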
